A study of Mus musculus with 2 samples.

Results

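Conventional type 2 dendritic cells are described here as the 524 cells that the authors' clustering placed in subcluster 4 at resolution 0.8, out of 5976 cells in the deposited annotation. The study profiled single cells sorted from mouse tumours as CD45-positive and JAML-positive, with 10x Genomics 5' chemistry. JAML is a junctional adhesion receptor on the surface of leukocytes, so cells without the protein on their surface were not sampled. The cells came from 3 mice in 1 experimental group, and no treated or untreated group was compared. The hashtag names give B16F10, a mouse melanoma line, and an isotype control for all 3 mice. Strain, age and sex are not given in the labels, which call the sorted cells T cells. The cells were pooled in 1 gene expression library and were told apart by hashtag antibodies. 

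Conventional type 2 dendritic cells take up antigen, load peptides on class II molecules and present them to CD4 T cells. In mice they are known by SIRPα, CD11b and the transcription factor IRF4, and one of their subsets carries the lectins encoded by Cd209a, Clec10a and Mgl2. Conventional type 1 dendritic cells instead depend on IRF8 and BATF3, carry XCR1 and cross-present antigen to CD8 T cells. Mature migratory dendritic cells have switched on CCR7 and fascin and travel to lymph nodes.

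The mouse of each cell was read from a hashtag oligonucleotide, and every value with an n of 3 rests on these barcodes, shown 5' to 3' as deposited.
Mouse 1 hashtag: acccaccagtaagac
Mouse 2 hashtag: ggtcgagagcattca
Mouse 3 hashtag: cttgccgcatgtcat

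The windows of 4 promoters are shown. Cd209a defines a split inside the subcluster described further on, in which Mgl2 rose and Gbp2 fell, and Cxcl10 rose in a split by Jaml. Gbp2 and Cxcl10 were picked because their windows hold the interferon motif searched. Each window holds the 250 bases before the start site on the gene's strand, from the RefSeq table for GRCm38.p6. They lie at chr8:3748985-3749234 on the minus strand for Cd209a, chr11:70130107-70130356 on the plus strand for Mgl2, chr3:142620413-142620662 on the plus strand for Gbp2 and chr5:92348890-92349139 on the minus strand for Cxcl10. Capitals mark the core of an interferon-stimulated response element (GAAA, any 2 bases, GAAA), searched on both strands.
Cd209a promoter: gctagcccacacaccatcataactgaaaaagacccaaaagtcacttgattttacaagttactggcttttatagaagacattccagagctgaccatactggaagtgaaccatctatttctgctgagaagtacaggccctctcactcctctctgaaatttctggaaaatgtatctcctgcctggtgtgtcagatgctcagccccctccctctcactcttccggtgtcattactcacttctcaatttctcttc
Mgl2 promoter: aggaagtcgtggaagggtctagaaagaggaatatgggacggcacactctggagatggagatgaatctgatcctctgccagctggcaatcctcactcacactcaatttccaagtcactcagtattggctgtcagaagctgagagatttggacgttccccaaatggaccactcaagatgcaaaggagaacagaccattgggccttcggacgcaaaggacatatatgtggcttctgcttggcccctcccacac
Gbp2 promoter: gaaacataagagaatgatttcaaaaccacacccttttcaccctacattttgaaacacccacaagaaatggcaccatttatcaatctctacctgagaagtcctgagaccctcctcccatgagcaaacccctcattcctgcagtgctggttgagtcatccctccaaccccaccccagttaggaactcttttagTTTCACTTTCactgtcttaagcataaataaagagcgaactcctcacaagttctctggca
Cxcl10 promoter: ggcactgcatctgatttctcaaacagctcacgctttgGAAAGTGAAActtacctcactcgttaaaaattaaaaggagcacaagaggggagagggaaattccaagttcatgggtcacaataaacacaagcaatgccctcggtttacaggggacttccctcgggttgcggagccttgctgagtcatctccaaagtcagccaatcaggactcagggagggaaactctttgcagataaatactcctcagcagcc

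The Gbp2 window holds the motif 59 to 50 bases before the start on the opposite strand, and the Cxcl10 window holds it 213 to 204 bases before the start on the same strand. It occurs in 974 of 32817 RefSeq windows of this length (2.97%). The Cd209a and Mgl2 windows hold no match to it, to the ETS-IRF composite (GGAA, any 2 bases, GAAA; 2.30% of windows) or to the PU.1 site GAGGAAGT (2.44%). The composite and the response element core can overlap. The windows of Cxcl9, Ifitm1 and Irf8, which also fell in the Cd209a split, hold no match to any of the 3 motifs. The Ifitm1 window, chr7:140967826-140968075, precedes the RefSeq start but lies inside the GENCODE gene, which starts at 140967221. Bases before that GENCODE start were not searched. These are matches of letters, not measured binding.

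Subcluster 4 took 277 of 2445 cells in mouse 1, or 11.3% (exact Clopper-Pearson 95% interval 10.1 to 12.7%). It took 104 of 1184 cells in mouse 2, or 8.78% (7.23 to 10.5%), and 143 of 2339 cells in mouse 3, or 6.11% (5.18 to 7.16%). The mean share was 8.74 ± 2.61% (SD, n = 3 mice), and the intervals, which cover counting error only, do not overlap between mouse 1 and mouse 3. Mouse 3 also had the largest part of the T-cell subcluster 1, with 597 cells against 64 in mouse 1. Counted over dendritic and macrophage clusters alone the share was 16.02 ± 2.90% (SD, n = 3 mice). The sort fixes all of these denominators. All 524 cells also sat together in a cluster of exactly 524 cells at resolutions 0.4 and 0.6.

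The 524 cells held 12999439 UMIs, with a median of 24415.5 UMIs and 4220.5 genes per cell. The other 5452 cells had medians of 13819 UMIs and 3389.5 genes. Within subcluster 4 the medians were 24425, 26016.5 and 23100 UMIs in mice 1, 2 and 3. The median share of mitochondrial UMIs was 1.47% in subcluster 4 and 2.29% in all other cells. Levels below are CPM from UMI counts summed per mouse and class.

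The markers fit the name, and the cells are called conventional type 2 dendritic cell-like from them. Cd209a, which encodes a DC-SIGN homologue, reached 1032, 1429 and 1064 CPM in subcluster 4 of mice 1, 2 and 3, against 60.6, 87.0 and 36.3 CPM in all other cells. Mgl2, a galactose-type lectin, reached 900, 953 and 844 CPM in subcluster 4, against 55.2, 106 and 37.1 CPM in all other cells. Clec10a, the paralogue of Mgl2, had 703, 662 and 655 CPM in subcluster 4 and 125, 144 and 102 CPM in all other cells. For each of the 3 lectins every mouse's subcluster 4 lay above every mouse's other cells. The mean log2 ratios were 4.31 ± 0.46 for Cd209a, 3.88 ± 0.67 for Mgl2 and 2.45 ± 0.24 for Clec10a (SD, n = 3 mice). These ratios describe the subcluster and have no test, because the cells were clustered on the same genes.

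Ifitm1 and Ffar2 also mark the subcluster. Ifitm1, a small interferon-inducible membrane protein, had 1941, 1721 and 2991 CPM in subcluster 4 of mice 1, 2 and 3, and 139, 120 and 128 CPM in all other cells. Ffar2, a receptor for short-chain fatty acids, had 134, 94.0 and 94.2 CPM in subcluster 4 and 7.24, 7.11 and 2.36 CPM in all other cells. Their mean log2 ratios were 4.06 ± 0.42 for Ifitm1 and 4.14 ± 0.64 for Ffar2. In the GENCODE M21 annotation of mm10, Cd209a lies on chromosome 8 from 3743397 to 3748984 and Ifitm1 on chromosome 7 from 140967221 to 140969825. Ffar2 lies on chromosome 7 from 30818348 to 30823775, and Mgl2 and Clec10a lie side by side on chromosome 11, from 70130329 to 70137550 and from 70156197 to 70170834. All 5 are protein-coding. Reads of Cd209a and its paralogues, of the Ifitm genes and of the paralogues Mgl2 and Clec10a can be split between near-identical copies, so their separate levels are uncertain.

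Among single cells, 237 of the 524 (45.2%) had a UMI of each of Cd209a, Ifitm1, Ffar2 and Clec10a, against 0.808% of all other cells. Only 5 cells (0.954%) had none of the 4, against 42.8% of all other cells. With every cell thinned to 7537 UMIs, Cd209a was seen in 77.7% of subcluster 4 cells, against 11.2% of all other cells and 4.29% of the T-cell subclusters, which should lack it. The unthinned shares were 85.5% in subcluster 4 and 16.4% in all other cells, with median depths of 24415.5 UMIs in subcluster 4 and 11112 UMIs in the T-cell subclusters. Thinned shares for Ffar2 were 44.8% in subcluster 4, 1.81% in all other cells and 0.33% in the T-cell subclusters. Thinning kept 516 of the 524 cells.

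**Figure D1:**
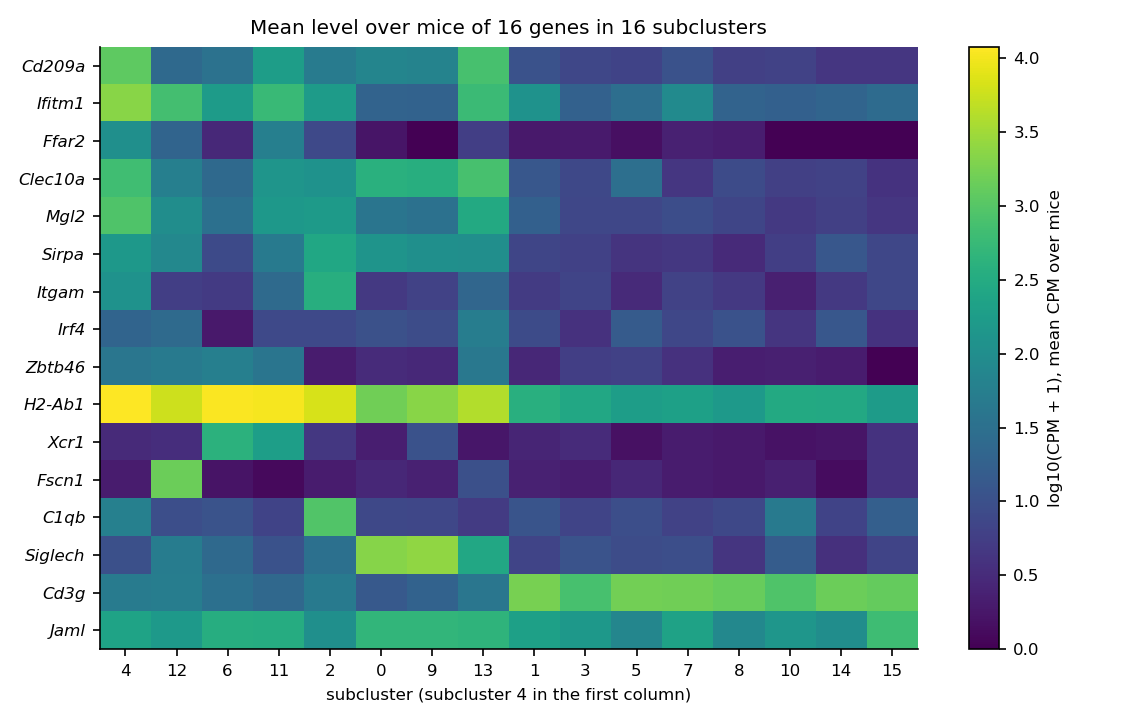
Mean CPM over mice, as log10(CPM + 1), for 16 genes (rows) in the 16 subclusters (columns, subcluster 4 first, then the other dendritic and macrophage subclusters and the lymphocyte subclusters). Cd209a, Ifitm1, Ffar2 and Mgl2 had their highest mean in subcluster 4, while Clec10a was higher in subcluster 13, at 778 CPM, than in subcluster 4, at 673 CPM.

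Across the 16 subclusters, subcluster 4 ranked first for Cd209a, with 1175 ± 220 CPM, and subcluster 13 followed with 776 ± 319 CPM. All 115 cells of subcluster 13 sit in the authors' cluster named for Siglech, a plasmacytoid marker. The ranges over mice met in part, since mouse values ran from 1032 to 1429 CPM in subcluster 4 and from 470 to 1106 CPM in subcluster 13. For Ifitm1 it also ranked first, with 2218 ± 678 CPM against 711 ± 308 CPM in subcluster 12, and the mice did not overlap. For Ffar2 the next subcluster was 11, the mixed cycling dendritic cells, with 57.2 ± 40.9 CPM against 108 ± 23.2 CPM in subcluster 4, and the mice overlapped. Clec10a was shared with plasmacytoid cells: subcluster 4 had 673 ± 25.6 CPM, and subcluster 0 had 382 CPM. The wider textbook markers were not at their peak here. Sirpa had 147 ± 12.2 CPM in subcluster 4 and 269 ± 15.2 CPM in the macrophage subcluster 2, and Itgam, which encodes CD11b, had 121 ± 19.7 CPM in subcluster 4 and 365 ± 50.9 CPM in subcluster 2. Irf4, the lineage's transcription factor, had 17.7, 24.1 and 16.4 CPM in subcluster 4 of mice 1, 2 and 3, and held rank 3 of 16.

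Over all genes, 7922 had at least 10 CPM as a mean over mice in subcluster 4 or in all other cells. Of these, 209 (2.64%) were at least 2-fold higher in subcluster 4 in each of 3 mice and 633 (7.99%) were at least 2-fold lower. The median gene had a log2 ratio of -0.17. With that median set to 0 the counts were 289 higher and 532 lower, so the share of higher calls was 35.2% in place of 24.8%. Without mouse 2 the number of higher genes was 352. Of the 209 higher genes, 97 had their highest mean in subcluster 4 itself, 36 in the mature migratory subcluster 12, 32 in the macrophage subcluster 2 and 22 in subcluster 13.

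Other genes with high ratios included the following. Il1r2, the decoy receptor for interleukin-1, had 258, 259 and 471 CPM in subcluster 4 and 18.0, 33.0 and 12.1 CPM in all other cells. Clec4b1, a further C-type lectin, had a log2 ratio of 3.16 ± 0.45, and H2-DMb2, a chain of the peptide-loading protein H2-DM, one of 2.96 ± 0.36. Klrb1b, an inhibitory lectin-like receptor, had a ratio of 2.76 ± 0.29, and Cd300a, an inhibitory receptor for membrane lipids, one of 2.37 ± 0.18. Tnip3, an inhibitor of NF-κB signalling, had 2.48 ± 0.44, and Spint1, a serine protease inhibitor, had 2.85 ± 0.20. Ear2, an eosinophil-associated ribonuclease, had 254, 133 and 163 CPM in subcluster 4 and 21.6, 39.5 and 15.9 CPM in all other cells. Others of the 25 highest were Rtn1, Bex6, Pgf, Creb5, Dapk1, Ppp1r14a, Ifitm6, Krt80, Nectin1, Mcemp1 and B4galt6, with log2 ratios between 2.26 and 3.03.

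The 10 lowest genes belonged mostly to plasmacytoid dendritic cells and lymphocytes. Siglech, the plasmacytoid lectin, had 14.4, 2.19 and 10.1 CPM in subcluster 4 and 474, 306 and 444 CPM in all other cells. Ccr9, Atp1b1, Cox6a2, Mctp2 and Ly6d had log2 ratios between -5.20 and -4.55. Gzmb and Prf1, the granzyme and perforin of killer cells, had ratios of -4.63 ± 0.20 and -4.41 ± 0.76. Apoe, a macrophage apolipoprotein, had -4.41 ± 0.90, and the histone gene Hist1h2ap had -4.30 ± 0.96.

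Class II presentation genes were high. Of the 12 genes with enough counts, 9 were 2-fold higher in every mouse and none was 2-fold lower. Over all genes 2.64% were higher and 7.99% lower. The median log2 ratio of the 12 was 1.63, against -0.17 over all genes. H2-Ab1, the class II beta chain, had 11923 ± 258 CPM in subcluster 4 and ranked above the type 1 subcluster 6, at 11175 ± 211 CPM, with no overlap between the mice. Ciita, the master regulator of class II genes, had 312 ± 31.5 CPM in subcluster 4 and 266 ± 31.6 CPM in subcluster 6, and these mice did overlap. H2-Oa and H2-Ob, the chains of the peptide-loading modulator H2-O, had log2 ratios of 1.78 and 1.55. The 13 class I genes had a median of 0.03 and none passed 2-fold.

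**Figure D2:**
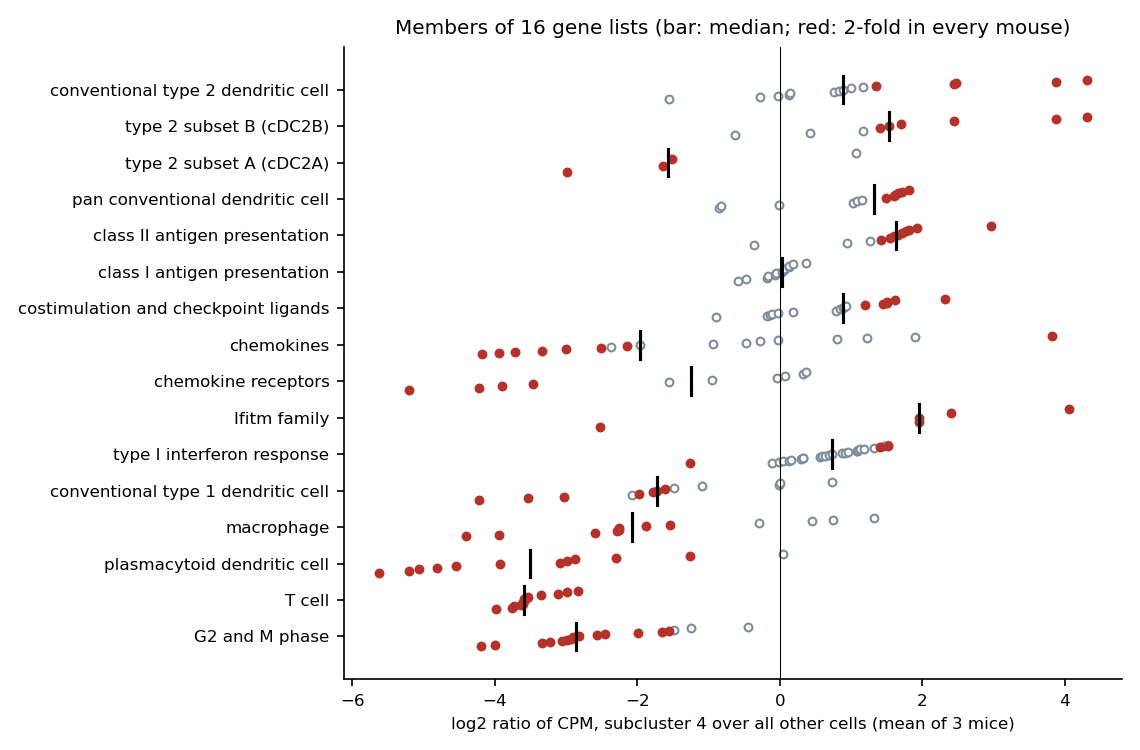
Mean log2 ratio of CPM over 3 mice (horizontal axis), subcluster 4 over all other cells, for the members of 16 gene lists with enough counts. Red points were at least 2-fold apart in every mouse, open points were not, and bars give list medians: class II genes had a median of 1.63 and class I genes one of 0.03.

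Genes listed for type 2 subsets were counted, for the Cd209a-type subset (cDC2B) and for the Tbx21-type subset (cDC2A). Of 9 cDC2B genes, 6 were 2-fold higher and none was lower, with a median of 1.54. Over all genes 2.64% were higher and 7.99% lower. The 6 were Cd209a, Mgl2, Clec10a, Tmem176a, Tmem176b and Il1b, and the interleukin-1 gene Il1b had 505 ± 62.2 CPM in subcluster 4. Of 4 cDC2A genes with enough counts, 3 were lower: Tbx21, Cd4 and Ltb had log2 ratios of -1.51, -2.99 and -1.64. Esam and Dtx1, also listed for the Tbx21-type subset, had no UMI in subcluster 4, and a count of 0 allows up to 3 UMIs over the group. Tbx21, Cd4 and Ltb are also T cell genes, and all other cells include the T-cell subclusters. Against type 1 cells and against macrophages 2 of 2 cDC2A genes with enough counts were higher in subcluster 4, with medians of 2.43 and 2.37, and against mature migratory cells 1 of 2 was lower.

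Of 17 costimulatory and checkpoint ligands with enough counts, 6 were 2-fold higher and none was lower, with a median of 0.89. Over all genes 2.64% were higher and 7.99% lower. The 6 were Cd80 and Cd40, which costimulate T cells, the ligands Icosl and Tnfsf9, and the inhibitory sialic acid receptors Siglece and Siglecg. Cd80 had 27.3 ± 8.78 CPM in subcluster 4, and the mature migratory subcluster 12 had 87.6 ± 19.2 CPM. Cd40, Icosl, Tnfsf9 and Siglecg also had their highest mean in subcluster 12, and Siglece had its highest in subcluster 4. Against mature migratory cells 5 of 20 listed genes were 2-fold higher in subcluster 4 and 9 were lower, with a median of -1.13. There 10.3% of all genes were higher and 7.51% lower. Cd86, Cd83, Cd274 and Pdcd1lg2 had log2 ratios between 0.79 and 0.93 and did not reach 2-fold in every mouse.

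Of 17 chemokines with enough counts, 7 were 2-fold lower, 1 was higher and the median was -1.97. Over all genes 7.99% were lower and 2.64% higher. The 1 higher chemokine was Ccl17, a CCR4 ligand, with 85.8, 193 and 122 CPM in subcluster 4 of mice 1, 2 and 3. In the mature migratory subcluster 12 it had 244, 86.9 and 471 CPM, and the mice of both subclusters overlapped. Ccl17 was carried by few cells, with a UMI in 17.6% of subcluster 4 cells. Of 10 chemokine receptors 4 were 2-fold lower, among them Cxcr3 and Cxcr6, and none was higher. Ccr2, the receptor of monocyte chemoattractants, had 313 CPM, with a log2 ratio of 0.08.

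Of the 40 transcription factors with enough counts 3 were 2-fold higher and 10 were lower. The shares over all genes, for these and the interferon lists below, were 2.64% higher and 7.99% lower. Zbtb46, which marks conventional dendritic cells, had a log2 ratio of 1.62, Spi1, which encodes PU.1, one of 1.63, and Runx1 one of 1.51. Irf8, the type 1 and plasmacytoid factor, had -3.03. Klf4, which type 2 cells need for some of their functions, had 1.17 and did not reach 2-fold in every mouse. Of the Ifitm family 4 of 5 were 2-fold higher, with Ifitm2 at 1.95, Ifitm3 at 1.96 and Ifitm6 at 2.40, and Ifitm10 was lower at -2.52. Of 27 other type I interferon genes, 2 (Ifit2 and Ifit3b) were higher, 1 (Bst2) was lower and the median was 0.74.

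Markers of other lineages were low. All 14 T cell genes were 2-fold lower in subcluster 4, and their summed level ran from 269 to 444 CPM in subcluster 4 and from 3745 to 4568 CPM in all other cells. The labels name T cells, and Cd3g had 48.1 CPM in subcluster 4. Of 12 plasmacytoid genes 11 were lower, of 10 natural killer genes 9, of 12 macrophage genes 8 and of 13 type 1 genes 7, and none of these was higher. Over all genes 7.99% were lower. Still, 102 of the 524 cells (19.5%) had at least 2 UMIs of Cd3d, Cd3e and Cd3g together, against 55.2% of all other cells, and 50 cells (9.54%) had at least 2 C1q UMIs, against 7.31%. No doublet call was made, and what these cells are was not tested. Of 18 genes of the G2 and M phases 15 were 2-fold lower.

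Against 3 other classes, picked by cell type and not by a measured similarity, the same cells showed different sides. Subcluster 13, which followed subcluster 4 in Cd209a, was not among them. Compared with type 1 dendritic cells (subcluster 6, 369 cells), 435 of 7358 genes (5.91%) were 2-fold higher in subcluster 4 in every mouse and 254 (3.45%) were lower. The higher genes with the largest ratios were Clec4n (6.17), Creb5 (5.46), Cd209a (5.43), Mrc1 (5.36), Ffar2 (5.29), Mcemp1 (5.20), Clec4a3 (5.16) and Ifit3 (5.10). Clec4n encodes the fungal receptor dectin-2, with 228 ± 8.22 CPM in subcluster 4 and 2.32 ± 1.14 CPM in type 1 cells. The lowest were Xcr1 (-7.07), Gcsam (-6.24), Plpp1 (-4.99), Snx22 (-4.89), the RNA sensor Tlr3 (-4.71), Itgae (-4.36) and Pianp (-4.30). Irf8 had 129, 120 and 122 CPM in subcluster 4 of mice 1, 2 and 3, against 2373, 2232 and 2088 CPM in type 1 cells. Irf4 had 19.4 ± 4.17 CPM in subcluster 4 and 0.906 ± 0.459 CPM in type 1 cells. All 13 type 1 genes were 2-fold lower, and 13 of 14 type 2 genes were higher.

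A second difference from type 1 cells was interferon-stimulated genes. Of 27 such genes 16 were 2-fold higher in subcluster 4 than in type 1 cells and none was lower, with a median log2 ratio of 1.65. Ifit1, which binds foreign RNA, had 79.3, 111 and 80.3 CPM in subcluster 4 of mice 1, 2 and 3, against 4.96, 2.12 and 2.31 CPM in type 1 cells. Isg15 had 588 ± 78.0 CPM in subcluster 4 and 187 ± 24.3 CPM in type 1 cells. Macrophages (subcluster 2) had 78.4 ± 13.4 CPM of Ifit1 and 779 ± 173 CPM of Isg15. Against macrophages none of the 27 genes was higher and 1 was lower, beside 3.29% and 5.04% of all genes tested.

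Compared with mature migratory dendritic cells (subcluster 12, 125 cells), 769 of 7484 genes (10.3%) were 2-fold higher in subcluster 4 and 562 (7.51%) were lower. The higher genes with the largest ratios were Cd209a (5.80), Fcgr4 (5.11), March1 (4.75), Gpr141 (4.71), Tbxas1 (4.58), Ear2 (4.57), Tm6sf1 (4.56) and Ltb4r1 (4.54). March1 encodes the ubiquitin ligase that removes class II and CD86 from the surface, and had 82.0 ± 8.94 CPM in subcluster 4 and 2.71 ± 2.90 CPM in mature cells. Ltb4r1, the leukotriene B4 receptor, had 126 ± 18.1 CPM in subcluster 4 and 4.45 ± 0.61 CPM in mature cells. The lowest were Fscn1 (-9.57), Cacnb3 (-8.11), Serpinb6b (-7.03), Nudt17 (-6.85), Cd63 (-6.64), Scin (-6.39), Il4i1 (-6.18) and Adcy6 (-6.04). Fscn1, the actin bundler fascin, had 1.01 ± 0.93 CPM in subcluster 4 and 1437 ± 148 CPM in mature cells. Ccr7 had 28.4, 20.8 and 49.0 CPM in subcluster 4 and 1824, 1406 and 1860 CPM in mature cells. Fc receptors and adaptors were higher in 7 of 12 and lower in none.

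Compared with macrophages (subcluster 2, 715 cells), 243 of 7396 genes (3.29%) were 2-fold higher in subcluster 4 and 373 (5.04%) were lower. The higher genes with the largest ratios were Ppp1r14a (5.15), Cd209a (4.61), Kit (4.41), H2-Oa (4.39), Sept3 (4.35), Zbtb46 (4.31), Ffar2 (3.89) and Ctnnd2 (3.80). Kit, the stem cell factor receptor, had 54.8, 27.4 and 41.3 CPM in subcluster 4 and 1.83, 0.41 and 0.76 CPM in macrophages. Zbtb46 had 39.0 ± 4.81 CPM in subcluster 4 and 1.02 ± 0.19 CPM in macrophages. The lowest were Chil3 (-7.01), Apoe (-6.75), the scavenger receptor Msr1 (-6.67), Ccl7 (-6.66), Thbs1 (-6.52), Arg1 (-6.41), Ccl12 (-6.14) and Maf (-5.87). Of 19 chemokines 11 were lower, and of 13 macrophage genes 11. The type 2 list did not lean towards subcluster 4 here: of 15 genes 5 were higher and 5 lower, with a median of -0.87, and the list summed to between 6123 and 6234 CPM in subcluster 4 and between 7881 and 9583 CPM in macrophages. These 3 comparisons share the subcluster 4 cells.

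**Figure D3:**
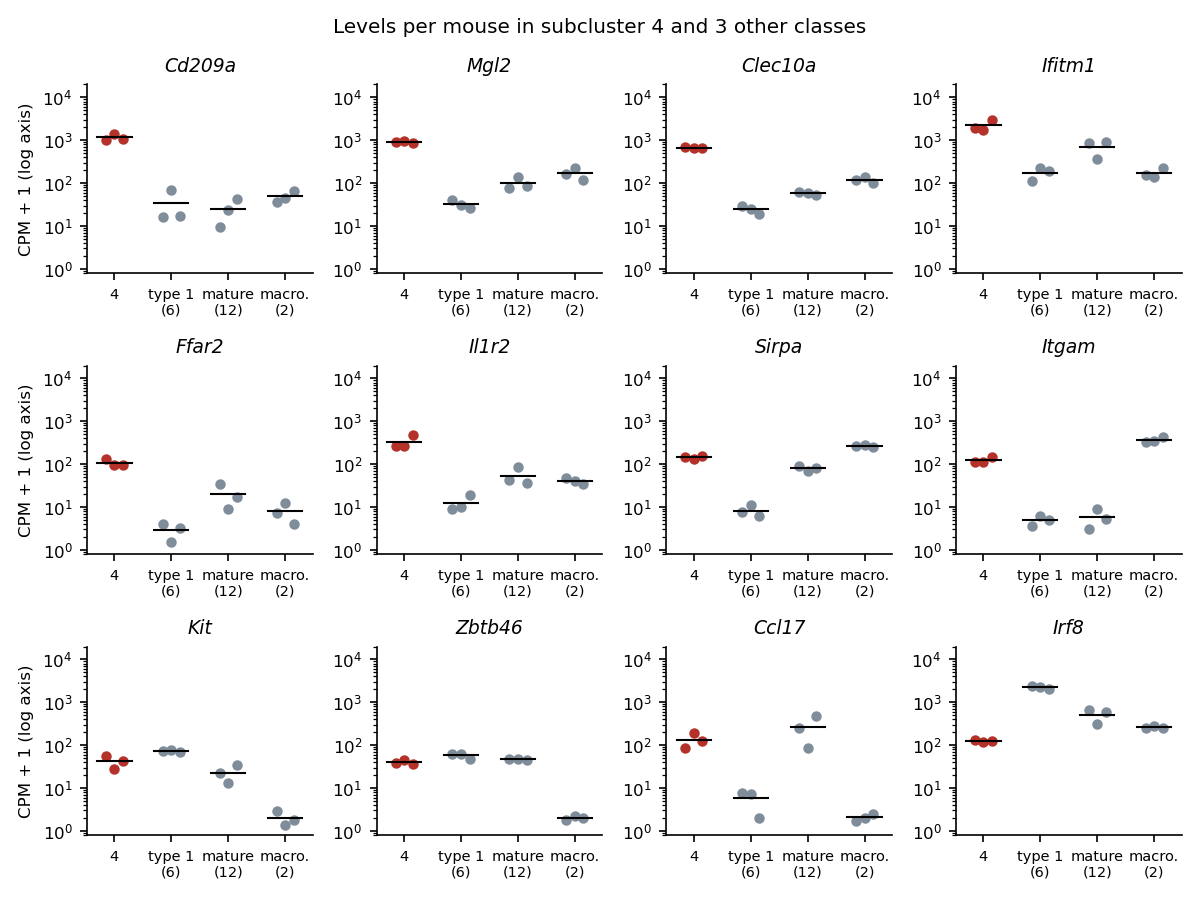
CPM + 1 per mouse (points, log axis) for 12 genes in subcluster 4, type 1 dendritic cells (subcluster 6), mature migratory dendritic cells (12) and macrophages (2), with bars at the mean of 3 mice. Irf8 sits at 124 CPM in subcluster 4 and 2231 CPM in type 1 cells, and Kit at 41.2 CPM in subcluster 4 and 1.00 CPM in macrophages.

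The 3 mice gave similar profiles of the subcluster. Of 3720 genes compared, 36 (0.968%) had a highest mouse at least 2-fold over the lowest. The widest were Hspb1, with 1.45, 128 and 20.2 CPM in mice 1, 2 and 3, and S100a9, a neutrophil calcium-binding protein, with 2.75, 1.46 and 112 CPM. Only 3 cells of the subcluster had at least 2 UMIs of S100a8 and S100a9 together. The heat shock genes Hspa1a and Hspa1b, whose reads are hard to tell apart, were lower in mouse 1, with 129 and 103 CPM, than in mouse 2, with 567 and 408 CPM, and mouse 3, with 465 and 427 CPM. Atf3, a stress-induced transcription factor, had 283, 469 and 758 CPM.

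The genes that varied most among single cells included inducible genes and genes of other cell types. Variation is given as the coefficient of variation beyond counting noise, whose median over 3851 genes was 0.326, taking each gene in its least variable mouse. Ccl17 had at least 3.93 in every mouse, Cxcl2 3.85, Cxcl10 2.92, Ccr7 4.05 and the complement gene C1qb 4.59. The T and natural killer cell genes Trbc2, Nkg7, Ccl5 and Cd3g had at least 3.29, 3.26, 3.23 and 3.08, and Pclaf, a gene of cycling cells, 3.93. Ccr7 had a UMI in 9.73% of cells and Cxcl10 in 27.5%. Hspb1, at 10.1, had UMIs in 1.34% of the cells. Il1r2 was concentrated in few cells: in mouse 1 the 27 cells with most Il1r2 UMIs, out of 277, held 53.5% of them. The marker Ifitm1 was concentrated as well, with 53.6% of its UMIs in the top 27 cells of mouse 1. The top 10 of 104 cells in mouse 2 held 46.8% of Ifitm1 UMIs, and the top 14 of 143 in mouse 3 held 40.3%.

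Cells with a Cd209a UMI were compared with cells without one, to see how the subcluster varies within itself. After matching on depth there were 76 cells a side, 43, 12 and 21 in mice 1, 2 and 3. By edgeR's quasi-likelihood test with the mouse as a block, 15 of 5315 genes (0.282%) rose and 15 (0.282%) fell in cells with Cd209a (adjusted p under 0.05). Clec10a had 958, 833 and 533 CPM in cells with Cd209a and 271, 198 and 279 CPM in cells without it, a log2 change of 1.64 ± 0.19 (SE, adjusted p = 0.000963). Mgl2 had 900, 916 and 777 CPM in cells with Cd209a and 539, 180 and 429 CPM in cells without it, a change of 1.26 ± 0.23 (adjusted p = 0.0199). Cd209d changed by 3.92 ± 0.46 (adjusted p = 0.000963), and Ifitm1 fell by 1.12 on the log2 scale, with 1483, 815 and 2902 CPM in cells with Cd209a and 3856, 2102 and 4809 CPM in cells without it (adjusted p = 0.000963). Without the mouse block no gene passed edgeR's test (222 at an unadjusted p under 0.05, and DESeq2 with the block called 16), and the adjusted p of Clec10a was 0.0785. Another draw of matched cells called 3 genes, and leaving out cells with at least 2 Cd3 UMIs also left 3. Clec10a was not called in the other draw (adjusted p = 0.111), and Mgl2 was called in none of these 3. Clec10a, Mgl2 and Ifitm1 also mark the subcluster, whose cells were clustered on the same genes. How far that selection shapes these changes and their p-values was not tested.

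A split that uses more of the cells was added after these results were seen. Cells above their mouse's median Cd209a share of UMIs were set against cells at or below it, 119, 44 and 54 cells a side in mice 1, 2 and 3. The cut is the median of a range of levels, and whether it separates types of cells was not tested. For Clec10a, Mgl2 and Ifitm1, which mark the subcluster, the part of the clustering in their changes was not tested here either. Within 20% of the median lay 24 of 277, 10 of 104 and 14 of 143 cells in mice 1, 2 and 3. Of 8029 genes 35 (0.436%) rose and 45 (0.56%) fell in the upper group by the same edgeR test. Of the 30 genes called before, 17 were called again and 28 had the same sign. The splits share cells, and every cell without a Cd209a UMI lies at or below the median. This agreement is therefore in part built in and is no independent test.

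Part of the lectin genes rose. Of the 12 other lectin and uptake genes with enough counts 5 rose in the upper group and none fell. Clec10a had 924, 897 and 892 CPM in the upper group and 529, 442 and 451 CPM in the lower group (log2 change 0.96 ± 0.08, adjusted p = 0.000533). Mgl2 had 1133, 1350 and 1287 CPM in the upper group and 727, 526 and 526 CPM in the lower group (1.11 ± 0.13, adjusted p = 0.00245). Mrc1, the mannose receptor, had 156, 179 and 127 CPM in the upper group and 69.3, 48.4 and 58.7 CPM in the lower group (1.38 ± 0.15, adjusted p = 0.00244). In each of these the 3 upper values lay above the 3 lower ones. Clec4b1 rose by 0.69 ± 0.11 (adjusted p = 0.0188). The call for Mrc1 was lost when cells with at least 2 Cd3 UMIs were left out, with a log2 change of 1.25.

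Genes next to Cd209a on chromosome 8 rose with it, a pattern noticed in the results and then counted. Of 13 tested genes within 500 kb of Cd209a, 6 rose and none fell, while 0.436% of all genes rose. The 6 lie between 3665754 and 3954746 and are Mcemp1, Fcor, Trappc5, Clec4g, Cd209d and Cd209c. Cd209d had 96.7, 148 and 118 CPM in the upper group and 8.99, 22.08 and 15.996 CPM in the lower group (3.06 ± 0.16, adjusted p = 1.75e-05). Cd209c and Clec4g are under the level set for named genes, at 27.1 ± 3.28 and 23.9 ± 7.52 CPM in the upper group and 7.22 ± 4.22 and 3.09 ± 1.82 CPM in the lower group. The Cd209 genes resemble Cd209a in sequence, so shared reads could enter their counts.

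Trappc5 and Mcemp1 are not members of the Cd209 family. Trappc5, a subunit of a vesicle-tethering complex, had 196, 190 and 179 CPM in the upper group and 84.3, 106 and 89.1 CPM in the lower group (1.07 ± 0.11, adjusted p = 0.00134). Mcemp1, a membrane protein first described in mast cells, had 150, 121 and 127 CPM in the upper group and 66.9, 89.2 and 56.4 CPM in the lower group (0.97 ± 0.14, adjusted p = 0.011). Fcor had a change of 1.75 ± 0.29 (adjusted p = 0.0188). The neighbours Xab2, Pet100 and Stxbp2 changed by 0.11, 0.20 and 0.13 and did not pass the test. Cd209e and Cd209b, which lie among the risen genes, changed by 3.13 and 1.98 and did not pass edgeR's test either (adjusted p = 0.144 and 0.111). Between 3 and 7 genes of this stretch rose, and none fell, under every alternative run for this split. In the first comparison, with against without a Cd209a UMI, Trappc5 and Cd209d passed edgeR's test (adjusted p = 0.0042 and 0.000963). Mcemp1, Fcor and Cd209c did not (adjusted p = 0.229, 0.298 and 0.118), and Clec4g was not tested there.

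Of 22 immediate early and stress genes 8 rose and none fell in the upper group. Jun had 882, 835 and 1328 CPM in the upper group and 559, 544 and 835 CPM in the lower group (0.68 ± 0.07, adjusted p = 0.00134). Egr1 had 198, 181 and 225 CPM in the upper group and 106, 121 and 139 CPM in the lower group (0.77 ± 0.10, adjusted p = 0.00482). Every mouse had higher Jun and Egr1 in its own upper group.

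Gbp2, Cxcl9, Ifitm1 and Irf8 fell in the upper group. Gbp2, a guanylate-binding protein induced by interferon-gamma, had 176, 57.8 and 80.8 CPM in the upper group and 446, 334 and 245 CPM in the lower group (-1.71 ± 0.17, adjusted p = 0.00134). Cxcl9, a CXCR3 ligand, had 276, 112 and 235 CPM in the upper group and 737, 511 and 378 CPM in the lower group (-1.37 ± 0.19, adjusted p = 0.0082). Ifitm1 had 1320, 1264 and 2146 CPM in the upper group and 2709, 2163 and 3685 CPM in the lower group (-0.84 ± 0.07, adjusted p = 0.000687). Irf8 had 95.7, 85.8 and 84.7 CPM in the upper group and 174, 146 and 162 CPM in the lower group (-0.83 ± 0.10, adjusted p = 0.00391). In all 4 genes the groups did not overlap. The costimulatory gene Cd86 fell by 0.80 on the log2 scale (adjusted p = 0.022).

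Of 27 type I interferon genes 2 fell, among them Ifi44, and none rose, with a median of -0.45. The interferon-inducible gene Cxcl10 rose in cells with a Cd209a UMI in the first comparison (1.14 ± 0.23, adjusted p = 0.0399 by edgeR). It had 135, 540 and 197 CPM there and 78.4, 138 and 133 CPM in cells without one. It was not called at the median, nor in the first comparison without the mouse block. The interferon motif shown above lies before 3 of the 35 fallen genes that have a promoter window, Gbp2, Cybb and Fcgr4 (8.57%), and before 1 of 27 risen genes (3.70%). It lies before 249 of the 6403 tested genes with a window (3.89%). The PU.1 site lies before 4 of the 35 fallen genes, C1qc, Cd72, Fcgr4 and Il4i1, before 0 of 27 risen genes and before 237 of the 6403. The ETS-IRF composite lies before 1 of the 35 fallen genes, 2 of 27 risen genes and 179 of the 6403. Whether any of these shares differs from that of all tested genes was not tested. The calls for Gbp2 and Cxcl9 were lost without the mouse block, at -1.63 and -1.35.

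Markers of other cell types moved with the same split. Ly6d, a plasmacytoid marker, had 7.02, 8.49 and 6.16 CPM in the upper group and 23.3, 53.5 and 34.3 CPM in the lower group (-2.17 ± 0.25, adjusted p = 0.00245), and C1qb had 34.3 ± 14.8 CPM in the upper group and 99.5 ± 26.3 CPM in the lower group. The 13 plasmacytoid genes summed to between 718 and 849 CPM in the upper group and between 913 and 1219 CPM in the lower group. The 14 macrophage genes summed to between 711 and 776 CPM in the upper group and between 698 and 858 CPM in the lower group. The 14 T cell genes summed to between 232 and 862 CPM in the upper group and between 142 and 360 CPM in the lower group. Each of these genes had UMIs in the upper group. Their part in the fallen genes was not tested.

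**Figure D4:**
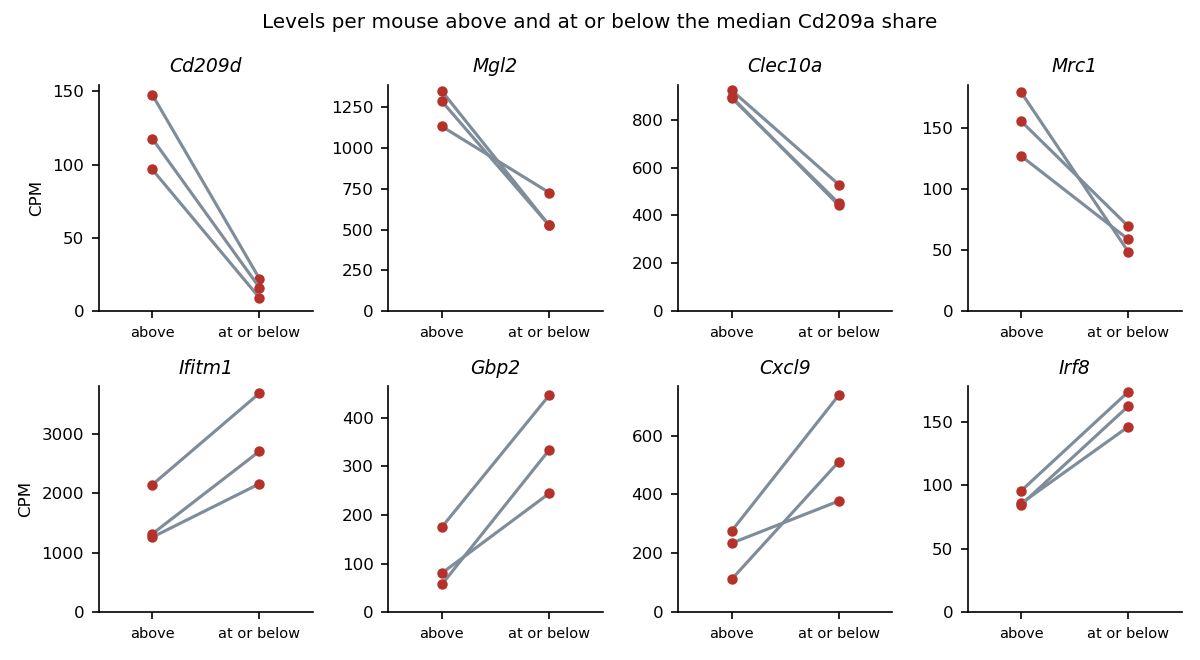
CPM per mouse (lines join the 2 groups of a mouse) for 8 genes in subcluster 4 cells above, and at or below, their mouse's median Cd209a share. Cd209d, Mgl2, Clec10a and Mrc1 were higher above the median in 3 of 3 mice, and Ifitm1, Gbp2, Cxcl9 and Irf8 were lower there in 3 of 3 mice.

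Jaml, the gene of the sorted protein, had 256, 213 and 223 CPM in subcluster 4 and 240.9, 210.8 and 244.6 CPM in all other cells, a log2 ratio of -0.01 ± 0.11. It held rank 7 of the 16 subclusters, below type 1 cells at 349 ± 36.0 CPM and above mature migratory cells at 159 ± 24.7 CPM and macrophages at 106 ± 16.1 CPM. It lies on chromosome 9 from 45079183 to 45108534. Cxadr, which encodes its known partner, had no UMI in subcluster 4. A Jaml UMI was seen in 258 of 277, 94 of 104 and 123 of 143 cells of mice 1, 2 and 3.

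Cells with a Jaml UMI and depth-matched cells without one numbered 49 a side, 19, 10 and 20 in mice 1, 2 and 3. Of 4238 genes 2 (0.0472%) rose and 2 (0.0472%) fell in cells with Jaml by edgeR's test. Cxcl10, a CXCR3 ligand, rose by 2.88 ± 0.38 (adjusted p = 0.018) and Cst3, the cathepsin inhibitor cystatin C, by 0.81 ± 0.08 (adjusted p = 0.00607). C1qb changed by -3.17 ± 0.35 (adjusted p = 0.00607) and Ccl4 by -1.58 ± 0.21 (adjusted p = 0.018). All 4 calls were lost when cells with at least 2 Cd3 UMIs were left out, and Ccl4 then had -0.09.

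Split at the median Jaml share, again added after the data were seen, 117, 39 and 64 cells a side gave 16 risen (0.192%) and 19 fallen (0.228%) of 8342 genes. Of the 4 genes above, 3 were called again, in splits that share cells, so this is no independent test. Within 20% of the median lay 52 of 277, 16 of 104 and 22 of 143 cells in mice 1, 2 and 3.

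Of 14 chemokines 5 fell in cells above the median and 1, Cxcl10, rose. Cxcl2, a neutrophil attractant, had 28.9, 21.6 and 38.3 CPM in the upper group and 109, 233 and 200 CPM in the lower group (-2.45 ± 0.21, adjusted p = 0.000192). Ccl3 had 21.3, 21.6 and 73.3 CPM in the upper group and 103, 60.6 and 177 CPM in the lower group (-1.70 ± 0.18, adjusted p = 0.00115). Cxcl2 was lower in all 3 upper groups than in any lower group, and the Ccl3 groups overlapped across mice. Ccl4, Ccl6 and Ccl9 fell by 1.63, 0.95 and 1.02 on the log2 scale. Lyz2, the myeloid lysozyme, had 355, 245 and 240 CPM in the upper group and 1338, 854 and 1283 CPM in the lower group (-2.05 ± 0.12, adjusted p = 1.51e-05). Ccr2, the monocyte chemokine receptor, had 234 ± 6.42 CPM in the upper group and 375 ± 32.1 CPM in the lower group (adjusted p = 0.00793). The calls for Cxcl2, Lyz2 and Ccl4 held under all 8 alternatives run for this split.

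Cxcl10 rose in the upper group, with 295, 353 and 350 CPM there and 84.0, 180 and 188 CPM in the lower group (1.23 ± 0.17, adjusted p = 0.00793). Ffar2 had 166, 127 and 149 CPM in the upper group and 101, 78.2 and 48.3 CPM in the lower group (0.98 ± 0.16, adjusted p = 0.0205). H2-Oa had 237, 220 and 313 CPM in the upper group and 173, 115 and 141 CPM in the lower group (0.82 ± 0.13, adjusted p = 0.0155). In all 3 genes the groups did not overlap. Siglecg rose by 1.01 ± 0.17 (adjusted p = 0.0264), Gnb4 by 1.40 ± 0.25, Fbrsl1 by 1.09 ± 0.19, Herc6 by 0.91 ± 0.15 and Sept3 by 0.86 ± 0.13. All 8 of these calls were lost without mouse 2 and without the mouse block. Cd209a itself had 984, 1904 and 1113 CPM in the upper group and 1056, 1190 and 969 CPM in the lower group and did not pass the test (adjusted p = 0.51).

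Other cell types' genes moved here too. Siglech, with 16.2 ± 12.4 CPM in the upper group and 3.95 ± 1.42 CPM in the lower group, rose by 2.12 ± 0.36 (adjusted p = 0.0264), and Itgae, a type 1 and T cell integrin, had 22.7 ± 1.68 CPM in the upper group and 6.95 ± 1.54 CPM in the lower group. The plasmacytoid genes summed to between 996 and 1040 CPM in the upper group and between 737 and 1002 CPM in the lower group. The macrophage genes summed to between 570 and 698 CPM in the upper group and between 746 and 832 CPM in the lower group. The heat shock genes Hspa1a and Hspa1b fell by 1.49 and 1.97 and lost their calls when cells with Cd3 UMIs were left out. Hspb1 was carried by few cells, with 0, 0 and 1.35 CPM in the upper group and 2.79, 340 and 44.2 CPM in the lower group. The part of these markers in the result was not tested.

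**Figure D5:**
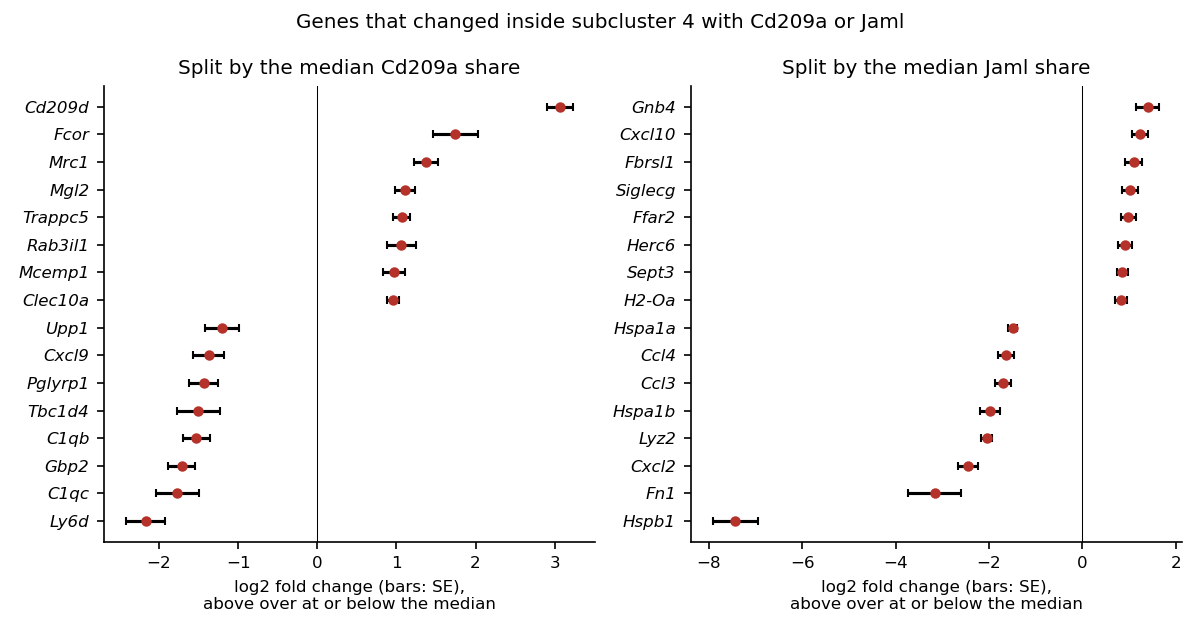
Log2 fold change with its SE (bars) for the 16 named genes of each split inside subcluster 4, cells above over cells at or below the median share of Cd209a (left) or Jaml (right). Cd209d had 3.06 in the Cd209a split, and Lyz2 had -2.05 in the Jaml split.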

How the data were processed

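The deposited matrix holds UMI counts for 15416 genes, made by the authors with Cell Ranger 3.1.0, Seurat 3.1.5 and mm10, per the submitters' processing notes. The deposited annotation gives clusters, hashtags, totals and the percent of mitochondrial UMIs. Other filters are not given in the sources used here. UMAP positions, which the authors deposited as scores, were not used. Another 8 cells carry no hashtag and enter no per-mouse value. Where nothing says that mice were handled separately, p-values measure only how the difference between cell groups within a mouse varies over these samples.

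UMIs of each mouse were added up by class and expressed as CPM. Log2 ratios add 1 CPM to each side and are means over 3 mice. Genes needed 10 CPM in either class, and a called gene was 2-fold apart in every mouse. Inside the subcluster edgeR 4.0.16 (TMM, filterByExpr, mouse as a block, Benjamini-Hochberg over all genes tested, in R 4.3.3) was used on cells matched within deciles of UMIs, each gene used for a split being left out. The SE is the log2 change divided by the root of F. Scripts were tested on simulated data, with a spread set in the simulation and not taken from these cells. For cells with against without Jaml, edgeR found 37 of 159 genes changed 2-fold and 154 of 167 changed 4-fold. For Cd209a it found 40 of 156 and 146 of 157, so most 2-fold changes were missed there. DESeq2 1.42.0 was an alternative.

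Named genes were the 25 highest and 10 lowest ratios against all other cells, 8 per direction against each class and in each split, with at least 30 CPM (and, between classes, a UMI in 25% of cells), plus members of 37 lists. Receptor segments, mitochondrial, ribosomal and unnamed models were left out. The members and lists were chosen with earlier results of these data known. The hashtag identifies a cell's mouse, so both sides of a split pair by mouse. A few genes that the rule names are not reported here.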

Additional observations from a re-analysis of the deposited data

How the results depend on the processing

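Against all other cells, the numbers of genes 2-fold higher and lower were 209 and 633. They moved by over 1.5 times to 1092 lower with no minimum CPM, to 351 higher with every other subcluster at equal weight and to 352 higher without mouse 2. Leaving out a mouse gave 217 to 352 higher and 680 to 743 lower genes. Counts against type 1, mature migratory and macrophage classes stayed within 1.5 times under all alternatives run, and no named gene changed sign there. The mean share was 16.02% over dendritic and macrophage clusters.

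In cells with against without Cd209a, 30 genes passed. The count was 150 with no filter, 16 by DESeq2, 17 with at least 2 UMIs, 4 unmatched, 3 with another draw, 3 without cells with Cd3 UMIs, 80 at the median and 17 to 92 with 1 mouse left out. With no replicate block 0 genes passed in edgeR, with 222 at an unadjusted p under 0.05. Hspa1b, at -1.26, turned to 0.0188 unmatched and 1.01 at the median, and Hist1h2bc, at 2.14, to -0.35 at the median. The median split's 80 genes became 44 by DESeq2, 147 with another draw, 52 without cells with Cd3 UMIs and 127 to 140 with 1 mouse left out. With no replicate block 14 passed.

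In cells with against without Jaml, 4 genes passed. The count was 12 with RLE size factors, 103 with no filter, 35 with at least 2 UMIs, 38 unmatched, 11 with another draw, 35 at the median and 10 to 45 with 1 mouse left out. Without cells with Cd3 UMIs 0 passed in edgeR, with 340 at an unadjusted p under 0.05, and DESeq2 on all matched cells called 3. With no replicate block 1 passed. The median split's 35 genes became 72 with another draw, 55 without cells with Cd3 UMIs, 13 without mouse 2 and 96 without mouse 3. With no replicate block 7 passed. The cause of these moves was not tested.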
